A study of Mus musculus with 6 samples.

Results

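The Ugt genes encode UDP-glycosyltransferases, and 10 of them were followed in mouse liver: Ugt1a1, Ugt2a3, Ugt2b1, Ugt2b5, Ugt2b34, Ugt2b35, Ugt2b36, Ugt2b37, Ugt2b38 and Ugt3a2. They were chosen by name, as the rows of the deposited expression table whose gene symbol is on that list, and all 10 were found among 24034 genes. RNA sequencing was done on liver of C57BL/6 mice at 25 weeks of age. The 3 WT libraries have the genotype label lncenc1wt/wt and the 3 HO libraries the label lncenc13A/3A, that is, the 3A allele of Lncenc1, a long non-coding RNA gene, on both chromosomes. The series calls these livers knockout, and the labels give neither a treatment nor what the allele alters. Whether each library is a separate animal is not stated, so p-values here speak of the spread among these samples, which may be technical. The labels name no substrain, so genetic background and mutation cannot be told apart. The RNA of Lncenc1 was not analysed here, and the genotypes rest on the labels.

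Glucuronidation joins the sugar acid of UDP-glucuronate to bilirubin, steroids, bile acids, phenols and drugs, which makes them water-soluble and lets them leave in bile or urine. The enzymes sit in the membrane of the endoplasmic reticulum and are most abundant in liver. The Ugt1a genes share a set of downstream exons, and each has a first exon and a promoter of its own, so the first exon sets which substrates the enzyme takes. The Ugt2b genes are separate, complete genes in a row, grown by duplication, and act largely on steroids and other endogenous molecules. Ugt1a1 is the bilirubin conjugating enzyme. Ugt3a2 belongs to a family whose human counterpart uses UDP-glucose and UDP-xylose, so the name glucuronosyltransferase is loose for it.

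In HO livers 2 of the 10 genes, Ugt2b38 and Ugt2b37, rose past the threshold and none fell past it (limma on log2(FPKM + 0.5), Benjamini-Hochberg adjusted p under 0.05). FPKM is a fragment count scaled to transcript length and to library size. All 10 genes passed the filter on low values, a 6-library mean of at least 0.5 FPKM. Among the 13250 genes tested, 1.14% were called in either direction, 0.325% as higher (43 genes) and 0.815% as lower (108), and with median-of-ratios scaling 70 were higher and 64 lower. At an unadjusted p under 0.05 there were 3 of the 10 genes higher and 3 lower, against 21.5% of all genes in either direction. The HO and WT values did not overlap for 5 of the 10 genes, with 3 higher (Ugt2b38, Ugt2b37 and Ugt2b1) and 2 lower (Ugt1a1 and Ugt2b5), where 27.9% of all genes were separate, 6.42% higher and 21.4% lower. The median log2 change was -0.08 for the 10 genes and -0.09 for all genes tested. Both rises lost the call when any one of WT replicates 1 and 2 or HO replicates 2 and 3 was left out (limma adjusted p from 0.0578 to 0.136). Leaving out HO replicate 1 ended the call of Ugt2b37 (0.0533) and not that of Ugt2b38. Without a filter on low values neither passed (0.0601 for Ugt2b38 and 0.0739 for Ugt2b37), and with a pseudocount of 0.1 Ugt2b37 did not (0.0504). A block for replicate number also ended both calls (limma adjusted p = 0.0730 for Ugt2b38 and 0.0798 for Ugt2b37).

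**Figure D1:**
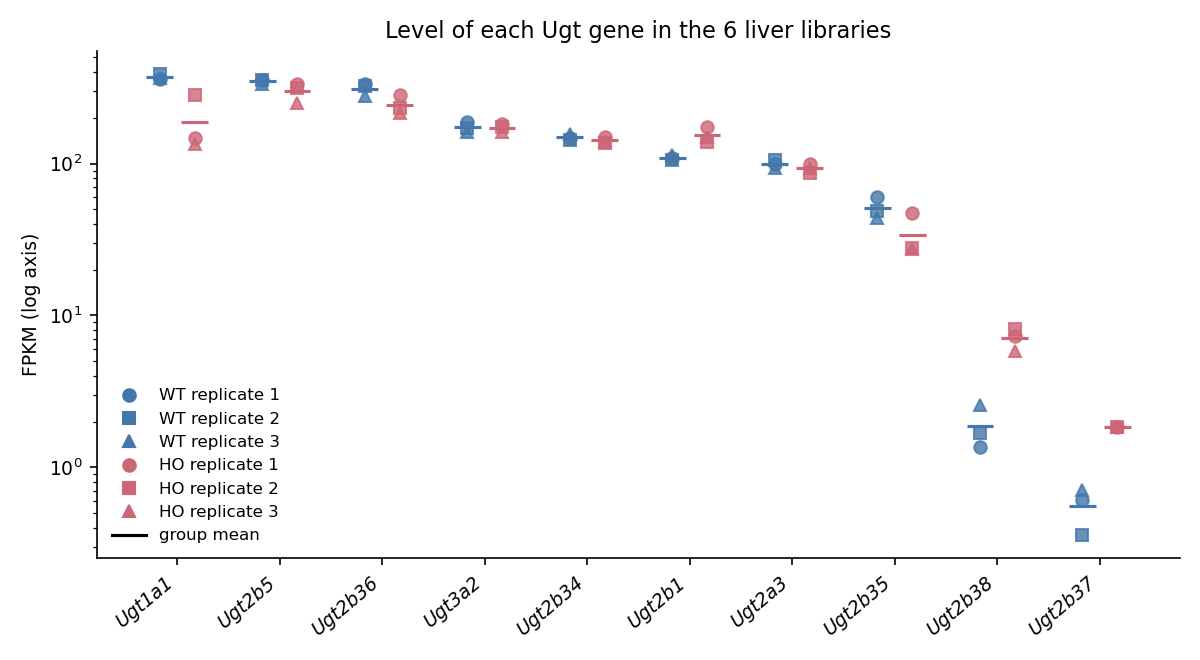
FPKM (log axis) of the 10 Ugt genes, ordered by their mean in WT, in 3 WT (blue) and 3 HO (red) liver libraries; symbols mark the replicate and lines the group means. Ugt2b38 and Ugt2b37 have the lowest levels, and all their HO points lie above their WT points. For Ugt1a1 all HO points lie below the WT points, with HO replicate 2 nearest to them.

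The levels covered nearly 3 orders of magnitude, and the genes that rose were the 2 least abundant. FPKM is scaled per length, so levels can be set side by side. In WT the mean level was highest for Ugt1a1 (373 FPKM), followed by Ugt2b5 (349), Ugt2b36 (311), Ugt3a2 (173), Ugt2b34 (149), Ugt2b1 (109.1), Ugt2a3 (99.4), Ugt2b35 (51.0), Ugt2b38 (1.86) and Ugt2b37 (0.559). Of these neighbours, Ugt2b1 and Ugt2a3 alone overlapped between libraries in WT. In HO the order of the means began with Ugt2b5 (300.03), Ugt2b36 (244), Ugt1a1 (188), Ugt3a2 (173), Ugt2b1 (154) and Ugt2b34 (143), where each of the first 5 overlapped with the next and Ugt2b34 did not overlap with Ugt2a3. The last 4 places were the same in both groups.

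Ugt2b38, Ugt2b37 and Ugt2b5 are near copies of each other, and 120 bases around their start sites are shown because Ugt2b38 and Ugt2b37 rose while Ugt2b5 did not. The sequences run from 100 bases before the start site to 20 after it, 5′ to 3′ on the strand of the gene, from RefSeq on GRCm38.p6. Capitals mark the longest run of bases that the 3 windows have in common, which is 62 bases long and was found in 3 of 32851 promoter windows of 300 bases (250 before the start, 50 after). Ugt2b36, the next gene along, is shown for comparison and does not hold the run.
Ugt2b38 (chr5:87424184-87424303, minus strand): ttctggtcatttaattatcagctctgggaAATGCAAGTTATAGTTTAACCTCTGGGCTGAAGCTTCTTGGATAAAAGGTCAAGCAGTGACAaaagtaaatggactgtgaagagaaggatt
Ugt2b37 (chr5:87254769-87254888, minus strand): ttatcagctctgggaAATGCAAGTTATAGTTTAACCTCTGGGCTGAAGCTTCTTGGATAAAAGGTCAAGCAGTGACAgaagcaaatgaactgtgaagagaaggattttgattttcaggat
Ugt2b5 (chr5:87140321-87140440, minus strand): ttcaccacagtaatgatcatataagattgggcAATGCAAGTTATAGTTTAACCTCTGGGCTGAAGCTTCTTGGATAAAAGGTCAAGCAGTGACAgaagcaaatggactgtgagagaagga
Ugt2b36 (chr5:87092536-87092655, minus strand): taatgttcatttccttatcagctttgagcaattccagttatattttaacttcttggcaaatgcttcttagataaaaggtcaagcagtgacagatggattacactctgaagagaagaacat

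Over the full windows Ugt2b38 and Ugt2b37 were identical at 94.8% of aligned bases, Ugt2b38 and Ugt2b5 at 88.6%, and Ugt2b37 and Ugt2b5 at 87.0%. Ugt2b36 matched Ugt2b38 at 67.0% and Ugt2b5 at 73.8%. Ugt2b38 was identical to Ugt2b5 at 97.0% of coding bases and to Ugt2b37 at 94.1%, and Ugt2b37 to Ugt2b5 at 94.7%. The common run lies at -71 from the RefSeq start site in Ugt2b38, at -85 in Ugt2b37 and at -68 in Ugt2b5. For Ugt2b37 and Ugt2b5 these start sites differ from the gene ends given below, which come from another annotation. The positions therefore depend on the annotation used. These 3 genes, which share the 62-base run, had WT levels of 1.86, 0.559 and 349 FPKM.

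Ugt2b38, a steroid-type glucuronosyltransferase with higher expression in male than in female mouse liver, had the largest rise of the 10. It lies on chromosome 5 from 87409942 to 87424203 on the minus strand (mm10). Its level was 1.35, 1.68 and 2.56 FPKM in WT and 7.29, 8.15 and 5.80 FPKM in HO. Every HO library was above every WT library. The means were 1.86 ± 0.626 and 7.08 ± 1.19 FPKM (SD, n = 3), 3.80 times as high in HO, with a log2 change of 1.70 ± 0.21 (SE, 95% interval 1.20 to 2.20, limma adjusted p = 0.0284). At the depth estimated for each library these levels stood for 48.8 to 106 reads in WT and 248 to 379 in HO.

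Ugt2b37, another gene of the Ugt2b row, rose from a lower level. It is on chromosome 5 from 87240493 to 87254804, minus strand. The WT libraries had 0.605, 0.357 and 0.714 FPKM and the HO libraries 1.83, 1.85 and 1.84 FPKM. The HO values were all above WT and nearly equal, which at the few reads given below need not reflect a small spread. The log2 change was 1.16 ± 0.17 (SE, 95% interval 0.77 to 1.56, limma adjusted p = 0.0351), from 0.559 ± 0.183 to 1.84 ± 0.00984 FPKM (SD, n = 3). It rests on 15.9 to 29.6 reads per WT library and 69.04 to 86.3 per HO library, the thinnest cover of the 10 genes.

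Reads of Ugt2b38 and Ugt2b37 can be shared with Ugt2b5, which was far more abundant. Of the 100-base words in the annotated transcripts of Ugt2b38, 24.2% also occur in another gene, namely Ugt2b5 or Ugt2b37, and of its 50-base words 37.4% occur elsewhere. For Ugt2b37 the shares were 1.06% and 18.3%. Neither the read length nor the handling of reads with several matches is known here. Ugt2b5 itself was lower in every HO library, and Ugt2b38 and Ugt2b37 were higher. Their ratios to Ugt2b5 therefore had to separate the groups, and the part of shared reads in these values was not tested. These ratios were chosen after the values were seen and carry no test. Per 100 FPKM of Ugt2b5 there were 0.381, 0.472 and 0.763 FPKM of Ugt2b38 in WT and 2.19, 2.58 and 2.30 in HO. For Ugt2b37 the ratios were 0.170, 0.1004 and 0.213 in WT and 0.551, 0.587 and 0.731 in HO. A ratio within a library does not depend on how libraries are scaled to each other.

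**Figure D2:**
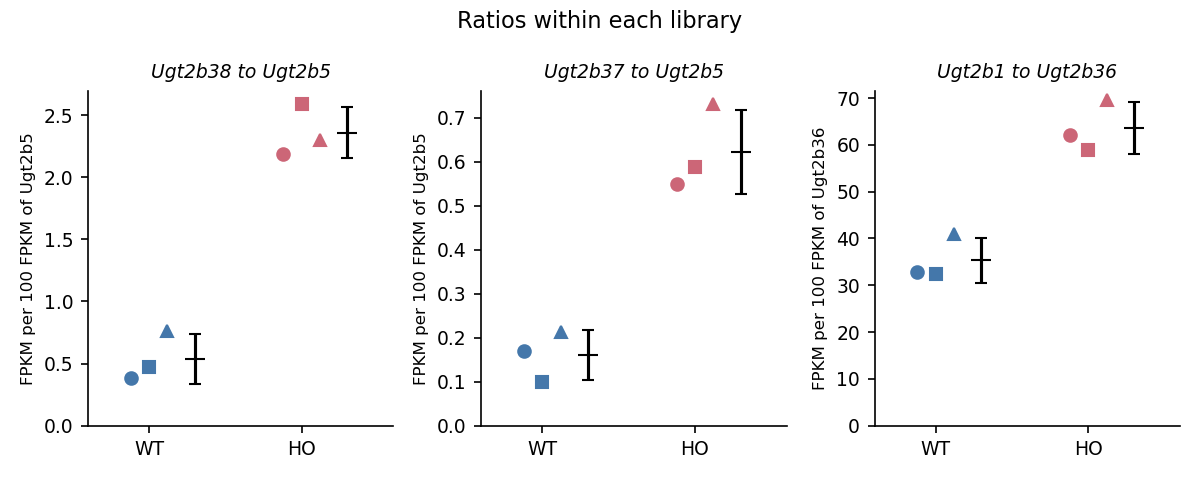
Ratios of FPKM within each library: Ugt2b38 and Ugt2b37 per 100 FPKM of Ugt2b5, and Ugt2b1 per 100 FPKM of Ugt2b36, each panel with its own linear axis from 0. Circles, squares and triangles are replicates 1, 2 and 3, and bars show the mean ± SD of 3 libraries. In all 3 panels the HO points lie above the WT points. The ratios were chosen after the values were seen.

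Ugt2b1, an abundant enzyme that is also higher in male than in female mouse liver, was higher in every HO library without passing the threshold. It lies on chromosome 5 from 86916638 to 86926530, minus strand. Levels were 108.6, 105.04 and 114 FPKM in WT and 175, 138 and 150.4 FPKM in HO. The groups did not overlap, and the means were 109.1 ± 4.30 and 154 ± 19.2 FPKM (SD, n = 3). The log2 change was 0.49 ± 0.11 (SE, 95% interval 0.24 to 0.74, limma adjusted p = 0.0751). With array weights, where 941 genes were called in place of 151, it was 0.48 and passed (limma adjusted p = 0.0360). None of its 50-base words occur in another annotated gene. Per 100 FPKM of Ugt2b36 there were 32.7, 32.5 and 40.9 FPKM of Ugt2b1 in WT and 62.1, 58.9 and 69.7 in HO. Ugt2b36 itself had a lower mean in HO, which widens this difference. Per 100 FPKM of Ugt2b34, which hardly changed, there were 73.9, 73.5 and 72.6 in WT and 116.8, 101.1 and 106.1 in HO. Both ratios were chosen after the values were seen and carry no test.

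The most abundant Ugt2b genes, Ugt2b5 and Ugt2b36, had somewhat lower means in HO, and so had Ugt2b35, with none past the threshold. Ugt2b5 (chromosome 5, 87124960 to 87140318, minus strand) stood at 355.3, 355.1 and 336 FPKM in WT and at 333, 315 and 252 FPKM in HO. The gap between the lowest WT and the highest HO library was smaller than the SD of either group (11.2 in WT and 42.3 in HO), and the log2 change was -0.23 ± 0.12 (SE, limma adjusted p = 0.316). Ugt2b36 (chromosome 5, 87065927 to 87092555, minus strand) stood at 332, 324 and 278 FPKM in WT and at 283, 234 and 216 FPKM in HO. Here HO replicate 1 lay inside the range of WT, and the log2 change was -0.35 ± 0.13 (SE, limma adjusted p = 0.173). Ugt2b35 (chromosome 5, 87000860 to 87013275, plus strand) stood at 60.5, 48.4 and 44.03 FPKM in WT and at 47.1, 27.7 and 27.5 FPKM in HO. Again HO replicate 1 overlapped WT, and the log2 difference was -0.61 ± 0.23 (SE, limma adjusted p = 0.186).

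HO replicate 1 stood apart from the other HO libraries in the level of acute phase proteins, the plasma proteins that the liver raises in inflammation. Their summed level over 18 genes was 9732 to 12704 FPKM in WT, 13017 in HO replicate 1, 31526 in HO replicate 2 and 28994 in HO replicate 3. Without HO replicate 1 the log2 changes of Ugt2b35 and Ugt2b36 were -0.86 and -0.46 (limma adjusted p = 0.0533 and 0.0828). The part of the acute phase in these values was not tested.

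Ugt2b34 and Ugt2a3 of the same row and Ugt3a2 of chromosome 15 had nearly equal means in both groups. Ugt2b34 (chromosome 5, 86889767 to 86906937, minus strand) had 147, 143 and 156 FPKM in WT and 150.2, 136 and 142 FPKM in HO, with a log2 change of -0.06 (95% interval -0.25 to 0.13, limma adjusted p = 0.711). Ugt2a3 (chromosome 5, 87324972 to 87337195, minus strand) had 99.4, 105.9 and 92.9 FPKM in WT and 99.97, 86.3 and 93.6 FPKM in HO, with a log2 change of -0.09 (95% interval -0.31 to 0.13, limma adjusted p = 0.609). Ugt3a2 (chromosome 15, 9335550 to 9370955, plus strand) had 188, 171 and 162 FPKM in WT and 182, 175 and 161 FPKM in HO, with a log2 change of -0.00 (95% interval -0.22 to 0.21, limma adjusted p = 0.985). The groups overlapped for all 3. The intervals show how closely 3 libraries a group fixed each change, and they are not limits of detection. Ugt2b1, with a larger log2 change of 0.49, did not pass the threshold either, so the lack of a call does not mean that a change is absent.

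The sum of the 7 Ugt2b genes overlapped between the groups, while its makeup differed. The sum was 1005, 977 and 931 FPKM in WT and 997, 860.2 and 795 FPKM in HO. HO replicate 1 lay within the WT range and the other HO libraries below it. The ratio of the means, 971 ± 37.6 and 884 ± 103 FPKM (SD, n = 3), was 0.911, and the sum was 0.186% to 0.198% of all FPKM in WT and 0.161% to 0.192% in HO. Ugt2b1 made up 10.8%, 10.7% and 12.2% of the sum in WT and 17.6%, 16.0% and 18.9% in HO, with no overlap. Ugt2b36 made up 29.8% to 33.1% in WT and 27.1% to 28.3% in HO, also with no overlap. Shares of one sum depend on each other, and a larger share of Ugt2b1 leaves less for the rest. Per 100 FPKM of Ugt2b34, Ugt2b36 stood at 177 to 226 in WT and 152 to 188 in HO, with overlap. Ugt2b35 took 4.73% to 6.02% in WT and 3.22% to 4.72% in HO, where the ranges nearly touched. Ugt2b5 took 35.3% to 36.3% in WT and 31.7% to 36.6% in HO, and Ugt2b34 14.6% to 16.8% and 15.1% to 17.8%, both with overlap. Ugt2b38 and Ugt2b37 added 0.194% and 0.0578% on average in WT and 0.802% and 0.210% in HO, so their rise hardly moved the sum.

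**Figure D3:**
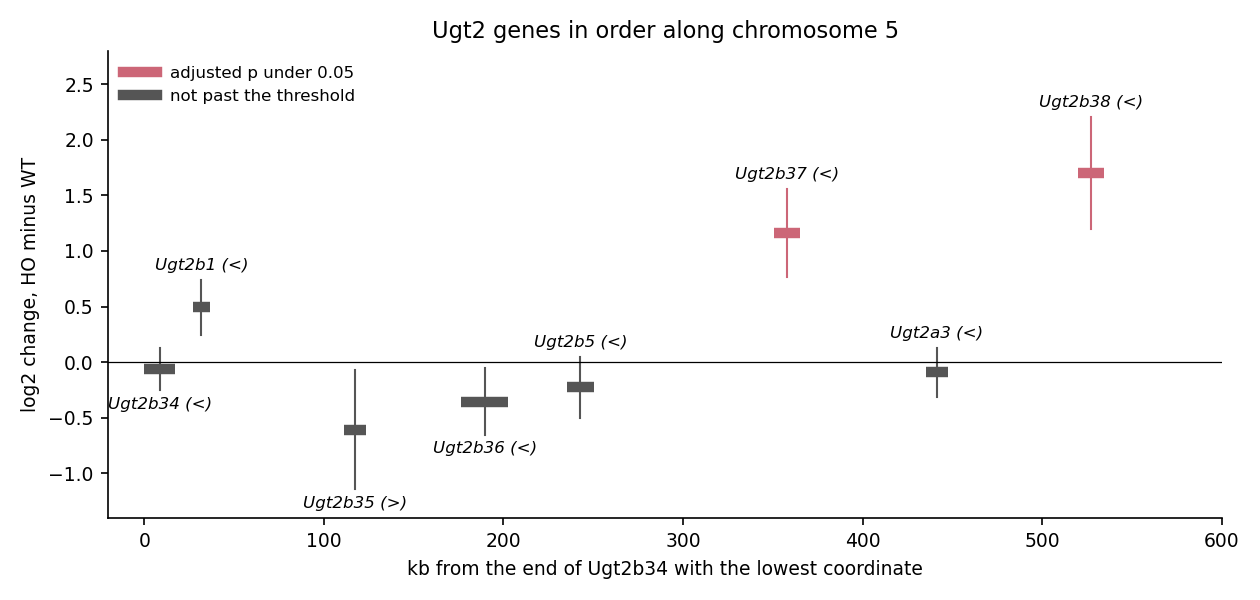
log2 change (HO minus WT, on log2(FPKM + 0.5)) of the 8 measured Ugt2 genes by their place on chromosome 5, in kb from the end of Ugt2b34 with the lowest coordinate; thick bars span each gene, vertical lines are 95% intervals from limma, and > and < give the plus and minus strand. Ugt2b38 (1.70) and Ugt2b37 (1.16) stand highest, with Ugt2a3 at -0.09 between them and Ugt2b5 at -0.23 on the other side of Ugt2b37.

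The genes that rose were not next to each other in the row on chromosome 5. The annotated Ugt2 genes span 601 kb, from 86889767 to 87490871, in the order Ugt2b34, Ugt2b1, Ugt2b35, Ugt2b36, Ugt2b5, Ugt2b37, Ugt2a3 and Ugt2b38, followed by Ugt2a2 and Ugt2a1, which were not analysed here. Ugt2a3 lies between the 2 genes that rose and had a log2 change of -0.09. Of 10 other tested genes within the row or up to 1 Mb outside it, none passed the threshold and the median log2 change was -0.20. They include the sulfotransferase genes Sult1b1, 22.5 kb away with 7.07 ± 1.68 FPKM in WT and 7.29 ± 1.39 in HO, and Sult1d1, 63.8 kb away with 37.2 ± 7.40 and 49.8 ± 4.05 (SD, n = 3). Sult1d1 was higher in every HO library, with a log2 change of 0.43 and a limma adjusted p = 0.176. Stap1, 784 kb away, was lower in every HO library, with a log2 change of -0.66 and a limma adjusted p = 0.138.

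Ugt1a1, the enzyme that conjugates bilirubin, was lower in every HO library but did not pass the threshold. Its place is chromosome 1, 88211959 to 88218997, plus strand. Its level was 361, 389.9 and 368 FPKM in WT and 147, 284 and 134 FPKM in HO. The WT libraries were close together, whereas HO replicate 2 was well above the other HO libraries. The means were 373 ± 15.3 and 188 ± 83.3 FPKM (SD, n = 3), and the log2 change was -1.07 ± 0.27 (SE, 95% interval -1.69 to -0.44, limma adjusted p = 0.0918). Without HO replicate 2 the change was -1.41 and passed (limma adjusted p = 0.0102), and with array weights it was -1.13 (0.0474). The acute phase sum was near WT in HO replicate 1 and high in HO replicates 2 and 3, and its part in the Ugt1a1 values was not tested.

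The other Ugt1a genes of the same locus were split among the HO libraries in the opposite way. Ugt1a2 had 0.576, 0.744 and 0.486 FPKM in WT and 29.9, 0.423 and 23.8 FPKM in HO. HO replicates 1 and 3 were far above WT and HO replicate 2 just below it. The same libraries were high for the 3 genes that follow. Ugt1a6b had 22.4, 22.2 and 23.1 FPKM in WT and 53.2, 22.4 and 67.9 FPKM in HO. Ugt1a9 had 22.8, 7.91 and 10.4 FPKM in WT and 39.5, 13.7 and 60.7 FPKM in HO. Ugt1a5 had 16.2, 17.5 and 24.2 FPKM in WT and 33.6, 7.998 and 47.6 FPKM in HO. In all 4 genes HO replicates 1 and 3 had the highest values of the 6 libraries. Ugt1a6a, whose enzyme takes planar phenols, had 54.4, 61.6 and 42.0 FPKM in WT and 41.5, 43.6 and 26.3 FPKM in HO, without this split.

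None of these Ugt1a genes passed the threshold, and the values of HO and WT overlapped for each. The log2 changes were 3.00 ± 1.23 for Ugt1a2, 1.34 ± 0.58 for Ugt1a9, 0.92 ± 0.37 for Ugt1a6b, 0.30 ± 0.59 for Ugt1a5 and -0.51 ± 0.22 for Ugt1a6a (SE, limma adjusted p = 0.218, 0.240, 0.207, 0.806 and 0.237). Ugt1a7c and Ugt1a10 stayed at or under 0.456 FPKM and Ugt8a, which makes galactolipids of myelin, at or under 0.0682 FPKM, and these 3 were not tested. Ugt3a1, the neighbour of Ugt3a2, had 28.8 ± 2.62 FPKM in WT and 26.7 ± 2.06 in HO (SD, n = 3, log2 change -0.11, limma adjusted p = 0.596).

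**Figure D4:**
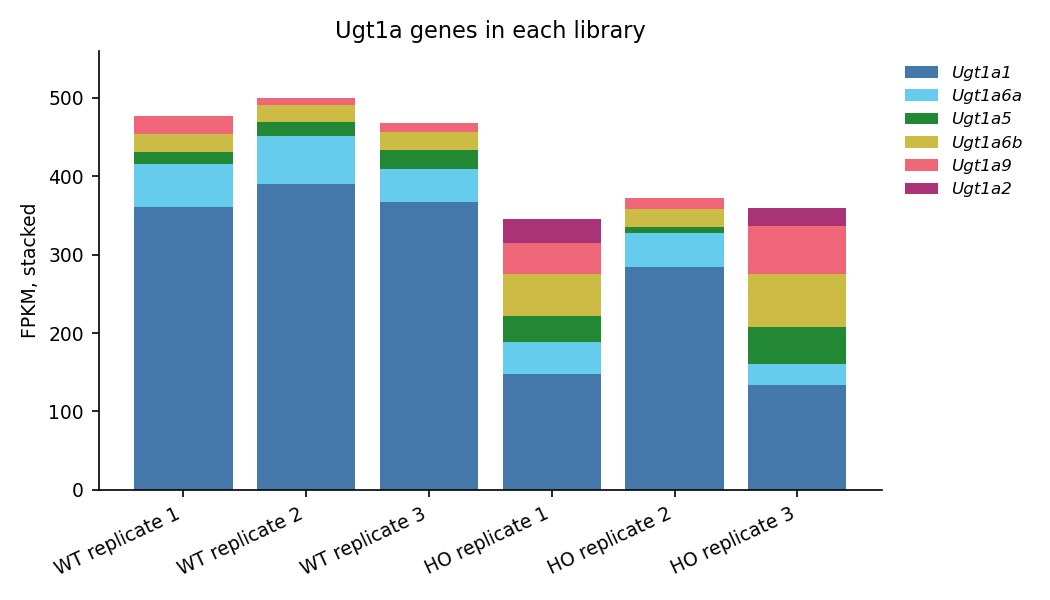
Stacked FPKM of the 6 tested Ugt1a genes in each liver library. Ugt1a1 makes up most of each WT bar and of HO replicate 2, while HO replicates 1 and 3 show larger parts of Ugt1a5, Ugt1a6b, Ugt1a9 and Ugt1a2. The bars of all 3 HO libraries are shorter than those of WT.

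The summed level of the 8 Ugt1a genes in the table separated the groups with little spread. It was 477, 500.09 and 468 FPKM in WT and 345, 373 and 361 FPKM in HO. The ratio of the means, 482 ± 16.4 and 359.5 ± 13.8 FPKM (SD, n = 3), was 0.746. Ugt1a1 made up 75.5%, 78.0% and 78.5% of the sum in WT and 42.7%, 76.2% and 37.1% in HO. HO replicate 2 had a makeup close to WT at a sum below every WT library. The sums were chosen after the values were seen and carry no test. Together, Ugt1a2, Ugt1a5, Ugt1a6b and Ugt1a9 had 61.9, 48.4 and 58.3 FPKM in WT and 156, 44.5 and 200.01 FPKM in HO.

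The split of reads among Ugt1a genes is uncertain, because their annotated exons coincide in large part. Of the 2224 exonic bases of Ugt1a1, 1311 (58.9%) also belong to other Ugt1a genes, and 913 belong to no other Ugt1a gene. With both strands and all annotated genes counted, 77.4% of its 100-base words and 80.2% of its 50-base words occur in another gene. Of the exonic bases of Ugt1a2, Ugt1a5, Ugt1a6b and Ugt1a9, 59.3%, 59.5%, 60.6% and 59.9% are shared. Ugt1a6a and Ugt1a6b were identical at 98.4% of coding bases, so the split of reads between them is uncertain beyond the shared exons. An antisense gene, Gm20528, which was not analysed here, covers 41.5% of the exonic bases of Ugt1a1. The sources used here do not say how reads in shared exons were assigned, and the part of that step in the split between libraries was not tested.

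The start sites of Ugt1a1 and Ugt1a2 are shown because these genes, each with a promoter of its own, had opposite values in HO replicates 1 and 3. The windows are of the same kind as above, and capitals mark the core GTTAAT of the site for HNF1, a liver transcription factor, or its reverse complement.
Ugt1a1 (chr1:88211859-88211978, plus strand): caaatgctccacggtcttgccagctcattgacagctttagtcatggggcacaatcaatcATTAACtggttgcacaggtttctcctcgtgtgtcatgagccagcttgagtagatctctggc
Ugt1a2 (chr1:88200511-88200630, plus strand): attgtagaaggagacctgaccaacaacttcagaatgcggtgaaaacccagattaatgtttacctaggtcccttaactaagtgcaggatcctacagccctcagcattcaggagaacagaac

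The HNF1 core GTTAAT was found on either strand in the 300-base window of 2 of the 9 genes with a window, Ugt1a1 (at -41) and Ugt2a3 (at -54 and -47), and in 7.10% of all 32851 windows. Ugt1a2 does not hold these letters. Ugt1a9, which was high in the same HO libraries as Ugt1a2, holds the core (at -91). Ugt1a6a, which had no such split, holds it too (at -50). With the other Ugt genes included, 6 of 17 windows hold the core. The part of this site in the Ugt1a values was not tested. The STAT motif TTCNNNGAA, the AHR core GCGTG and the TATA box TATAAA, also searched on both strands, were in 0 of the 9 windows and in 8.30%, 32.4% and 13.6% of all windows. None of the matches overlapped another motif. The promoter table has no entry for Ugt3a2.

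**Figure D5:**
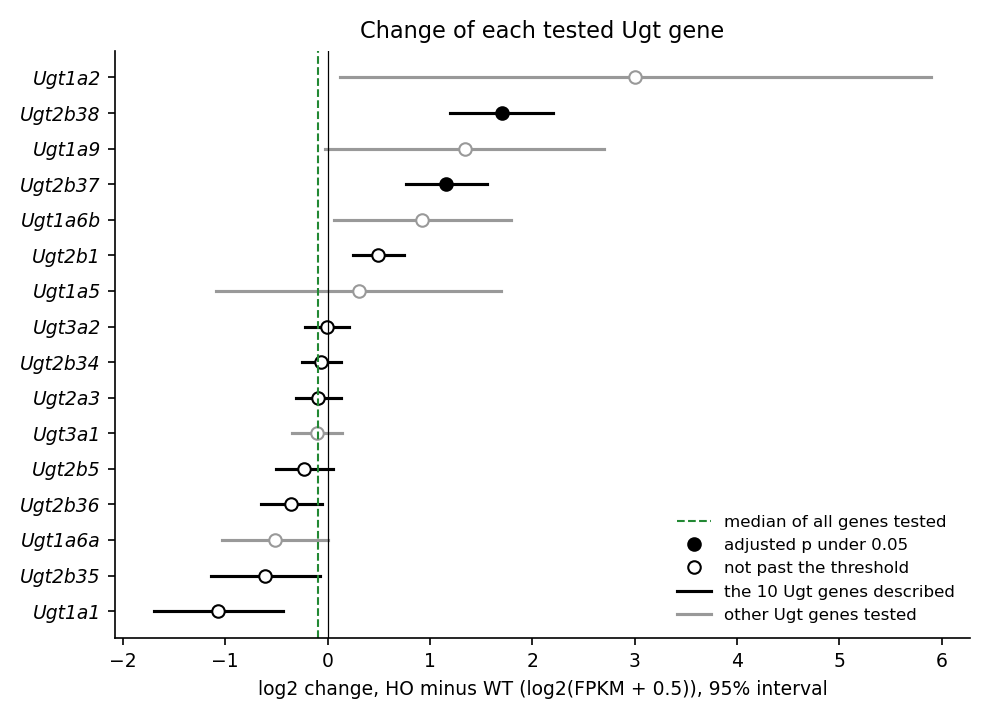
log2 change (HO minus WT, on log2(FPKM + 0.5)) with its 95% interval from limma for the 10 Ugt genes (black) and the 6 other tested Ugt genes (grey); filled points passed an adjusted p of 0.05 and the dashed line is the median of all genes tested (-0.09). Only Ugt2b38 and Ugt2b37 are filled, and the intervals of Ugt1a2, Ugt1a9 and Ugt1a5 are the widest.

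Genes around the reaction were read from lists. The lists that follow were written with earlier results of these data known, and their counts stand beside a background of 0.325% of genes higher and 0.815% lower and a median of -0.09. Of 11 genes that make or use UDP-glucuronate, from Ugp2 and Ugdh to the ascorbate enzymes Rgn and Gulo, none passed, and 9 had a negative change on the deposited scaling (median -0.29). The smallest p values were those of Entpd5, a nucleotide hydrolase of the endoplasmic reticulum, with 71.02 ± 13.3 FPKM in WT and 42.2 ± 6.61 in HO, and of the reductase Akr1a1, with 258 ± 21.6 and 199.8 ± 17.5 (SD, n = 3, limma adjusted p = 0.0794 and 0.111). Of 8 tested transporters of conjugates and organic anions, 2 fell past the threshold and none rose past it (median -0.07). Without regard to the threshold, 2 were higher and 3 lower in every HO library than in WT, against 6.42% and 21.4% of all genes. Abcc3, which exports glucuronides across the basolateral membrane into blood, had 72.6, 71.04 and 67.8 FPKM in WT and 50.9, 46.5 and 45.0 FPKM in HO (log2 change -0.57 ± 0.08, SE, limma adjusted p = 0.0360). Slco1a4, an uptake carrier of organic anions, had 10.3, 12.5 and 7.94 FPKM in WT and 3.83, 3.86 and 5.31 FPKM in HO (log2 change -1.15 ± 0.19, SE, limma adjusted p = 0.0484). Slco1a1 of the same list went the other way, with 63.7, 76.7 and 124 FPKM in WT and 171, 169 and 169 FPKM in HO. Its log2 change was 1.00 ± 0.22 (SE, limma adjusted p = 0.0778).

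Among 15 genes of regulators known to act on Ugt genes, Nfe2l2 fell, none rose, and the median was 0.08. Nfe2l2 encodes NRF2, an activator of detoxifying genes, and had 42.0, 37.7 and 35.8 FPKM in WT and 25.04, 24.1 and 25.3 FPKM in HO (log2 change -0.62 ± 0.09, SE, limma adjusted p = 0.0353). Of 10 genes of growth hormone signalling and sex-dependent regulation, Socs3, a feedback inhibitor of cytokine signalling, rose from 2.69 ± 0.885 to 18.03 ± 6.48 FPKM (SD, n = 3, log2 change 2.51, limma adjusted p = 0.0261), with a median of -0.02.

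Other conjugation routes showed few calls. Of 9 tested sulfotransferase and sulfate donor genes none passed (median 0.05), and Papss1 and Sult1c2 had the smallest p values, with log2 changes of -0.45 and -0.91 (limma adjusted p = 0.0835 and 0.138). Of 12 other conjugating enzymes Nnmt, which methylates nicotinamide, rose from 74.2 ± 3.07 to 158 ± 37.02 FPKM (SD, n = 3, log2 change 1.06, limma adjusted p = 0.0454) and none fell (median -0.09). Of 5 genes of heme and bilirubin turnover none passed (median -0.10). Blvrb, a biliverdin reductase, and Por, the electron donor of P450 enzymes and heme oxygenase, had log2 changes of -0.53 and 0.89 (limma adjusted p = 0.0750 and 0.0912). Among 18 acute phase genes Saa4 rose past the threshold and none fell past it (median 0.94). All 18 had a positive change, and 9 were higher in every HO library than in WT, against 6.42% of all genes.

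Genes with profiles most like that of Ugt2b38 were named by the smallest root mean square difference of mean-centred log2(FPKM + 0.5) over the 6 libraries, among 11560 genes with a mean of at least 1 FPKM. They were the complement gene C8b (0.174), Cyp7b1 (0.201), an oxysterol hydroxylase, and the acute phase gene Saa4 (0.207). C8b had 41.04, 51.5 and 88.9 FPKM in WT and 159, 202 and 174 FPKM in HO. For the sum of the Ugt2b genes the nearest profiles were those of Mrpl22 (0.0322), Tsnax (0.0339) and Rpl14 (0.0340), each with little change between the groups.

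The libraries held liver RNA by their markers. The summed level of 7 hepatocyte markers was 47467 to 50232 FPKM in WT and 43201 to 48134 FPKM in HO. Of these markers 5 were higher in every HO library and 2, Alb and Ttr, were lower in every one. Ahsg and Cps1 alone passed the threshold, both as higher. Summed stellate cell markers ranged lower in HO (81.05 to 100.3 FPKM in WT and 56.4 to 70.08 in HO). So did those of cholangiocytes (24.998 to 28.03 and 20.3 to 23.2 FPKM), most of which was Spp1 (19.8 to 23.1 and 16.8 to 19.3). Most of the stellate sum was Dcn (64.6 to 77.0 and 46.3 to 57.3). Of the 6 stellate markers 5 had a negative and 1 a positive change, and 4 separated the groups. Of the 4 tested cholangiocyte markers 3 had a negative and 1 a positive change, and Spp1 alone separated the groups. The ranges overlapped for Kupffer cells (68.4 to 123 and 57.0 to 76.2) and endothelium (41.5 to 50.6 and 38.7 to 43.9). The 4 intestinal markers in the table summed to 151 to 172 FPKM in WT and 85.06 to 118 in HO, nearly all from genes that liver also expresses (Fabp2 and Lgals4), and the 2 kidney markers to at most 0.234 FPKM. Erythroid genes summed to 484 to 506 FPKM in WT and 255 to 429 in HO, adipocyte genes to 36.4 to 44.005 and 24.1 to 30.1, acinar genes to 18.0 to 23.2 and 21.7 to 42.1, and lymphocyte genes to 1.22 to 2.19 and 0.621 to 1.37. The 3 globin genes of the erythroid list were lower in every HO library, while Alas2 overlapped (55.1 to 56.1 FPKM in WT and 54.3 to 74.6 in HO). The acinar sum came from Cela1 alone. Of the adipocyte genes Cidec was lower in HO (27.9 to 35.6 FPKM in WT and 9.96 to 21.8 in HO), while Fabp4 overlapped. No marker outside the hepatocyte list passed the threshold, and Adipoq, Plin1, Muc2 and Ctrb1 were listed at 0 in every library. In bulk liver, fewer cells of a type and less RNA per cell cannot be told apart. The part of these differences in the Ugt values was not tested.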

How the data were processed

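Liver RNA was extracted with Trizol and made into directional Illumina libraries, per the labels' protocols. The values the authors deposited are FPKM. HISAT2, HTSeq, DESeq2, StringTie and build mm10 appear in the submitters' processing notes, which do not say here what made the FPKM. Each value column was matched to a sample by group and replicate number. GENCODE mouse release 21 holds all 24034 identifiers and was the source of positions and exons.

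The 13250 genes averaging at least 0.5 FPKM entered an unblocked limma model of log2(FPKM + 0.5) on genotype (limma 3.58.1, R 4.3.3, trended eBayes). Two-sided p-values were adjusted over all of them by Benjamini-Hochberg at 0.05, and fold changes of low genes are understated. The fit was tested on simulated data. A single gene with 3 libraries against 3 cannot reach an exact permutation p below 0.1.

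FPKM sums were 495570 to 518218 per library. The spacing of low values gave depths of 19100000 to 24600000 read equivalents. Between 28.1% and 29.8% of values at 20 reads or fewer were whole within 0.02, too few to recover counts.

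The median gene stood at 0.853 to 0.879 FPKM in WT libraries and 0.742 to 0.788 in HO libraries. Of 151 genes called, 43 were higher and 108 lower, or 70 and 64 with median-of-ratios scaling, which moved the median change of all genes from -0.09 to 0.01.

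Same-numbered WT and HO libraries did not deviate together (correlations 0.0661, -0.0281 and 0.0147 over 13250 genes), so the numbers do not pair them. Coding sequences were the longest open frames of GENCODE transcripts, aligned with biopython 1.88. Windows for 9 of the 10 genes came from RefSeq (GRCm38.p6). The genes named are the 10 Ugt genes, the other Ugt genes in the table, list genes past the threshold or up to 2 with the smallest p, and the nearest profiles. Some neighbours, markers and further list genes are named as well. Members and lists were chosen with earlier results of these data known. Python 3.11.15, numpy 2.4.6, pandas 2.3.3 and matplotlib 3.10.9 were used.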

Additional observations from a re-analysis of the deposited data

How the results depend on the processing

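Ugt2b38, Ugt2b37, Ugt2b1, Ugt2b5, Ugt2b35, Ugt2b36 and Ugt1a1 kept their direction under all 16 alternatives: other pseudocounts (0.1, 1), other filters (none, 1 FPKM), median-of-ratios and quantile scaling, eBayes without trend and robust eBayes, array weights, the replicate block, and each library left out. For groups that do not overlap, leaving out a library cannot turn the direction. The number of Ugt genes higher in HO, 2 in the main analysis, was 0 with no filter, 1 with a pseudocount of 0.1, 0 with the replicate block and 3 with array weights, and 0 to 2 with a library left out. The number lower, 0, was 1 with array weights and 0 to 1 with a library left out, the gene being Ugt1a1. Ugt2b38 passed under 10 of the 16 alternatives (limma adjusted p from 0.0132 to 0.118) and Ugt2b37 under 8 (0.01998 to 0.136). Ugt1a1 passed under 2 (0.0102 to 0.258) and Ugt2b1 under 1 (0.0360 to 0.235). The log2 changes near 0 turned sign: with median-of-ratios scaling Ugt2a3 was at 0.022, Ugt2b34 at 0.053 and Ugt3a2 at 0.11, with quantile normalization Ugt2b34 was at 0.020 and Ugt3a2 at 0.077, and Ugt3a2 was between -0.054 and 0.054 with a library left out. All genes called, 151, were 941 with array weights, 77 without a trend, 40 with no filter, 100 with a pseudocount of 0.1, 25 with the replicate block, and 6 to 259 with a library left out. The causes were not tested. The Ugt2b sum (log2 ratio -0.14) was -0.23 to -0.06 with a library left out and -0.02 and -0.08 with the scalings. Depth limits Ugt2b37 most, with 15.9 reads in its lowest library.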
